A study of Mus musculus with 27 samples.

Results

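The genes described here are 55 genes of the cell cycle and of DNA replication, measured by RNA sequencing in 27 libraries of cultured mouse macrophages. They were chosen by name, with earlier results of these data known. The fixed list holds cyclins and their kinases, kinase inhibitors, cell cycle transcription factors, replication and nucleotide synthesis genes, and mitosis genes. All 55 were among the 29872 genes of the deposited count table, and all 55 were among the 14589 genes with enough counts to be tested. Bone marrow of male mice aged 8 to 10 weeks had been grown for 5 days in medium with 20% serum and 10% L-cell conditioned medium, which supplies the growth factor that macrophages divide on. The adherent cells were then kept for 24 h with vehicle, with the type 2 cytokine interleukin-4 (IL4, 10 ng/ml), with the natural mouse glucocorticoid corticosterone (500 nM) or with the synthetic glucocorticoid dexamethasone (100 nM).

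Each treatment was given to cells of 2 genotypes on the C57BL/6 background. The genotype field of the control mice reads LysM-Cre+/+; GRIP1wt/wt, although their sample titles read BL6, and they are called wild type below. The others were LysM-Cre+/+; GRIP1fl/fl, called GRIP1 knockout below. GRIP1, the product of Ncoa2, is a coregulator that binds nuclear receptors, among them the glucocorticoid receptor. Cre is driven from the lysozyme 2 locus, which is active in macrophages and neutrophils, so both genotypes carry the recombinase and the deletion is not expected in other cell types. The wild-type groups had 3 libraries each. The knockout groups had 4 libraries each with vehicle, corticosterone and dexamethasone, and 3 with IL4, numbered 1, 2 and 4.

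Cells that divide pass from G1 into DNA synthesis and then into mitosis. D-type cyclins with Cdk4 and E-type cyclins with Cdk2 free the E2F factors, which drive the genes that license and copy DNA, and B-Myb (Mybl2) and Foxm1 later drive the mitotic genes. The inhibitors p21 (Cdkn1a) and p27 (Cdkn1b) hold the kinases back. Macrophages grown from bone marrow leave the cell cycle as they mature, but a share of them still divides while the growth factor is present.

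Sequencing gave between 20162729 and 48023102 counts per library. Ncoa2 checked the genotype labels, with 55.7 to 93.4 CPM (counts per 1000000 counts of the library, after scaling) in the 12 wild-type libraries and 16.1 to 26.0 CPM in the 15 knockout libraries. The 7 macrophage markers fixed for the check summed to between 5227 and 6605 CPM, and the erythroid and the T and NK cell lists to under 0.5 CPM each. Of 8 markers of myeloid progenitors, 3 had a mean over 1 CPM across the libraries (Cd34, Kit and Mpo), and the list summed to between 12.2 and 52.3 CPM. Markers of stromal cells summed to between 147 and 762 CPM in wild type and between 8.83 and 40.2 CPM in knockout, and those of neutrophils to between 46.9 and 343 CPM and between 5.2 and 16.8 CPM. Both lists were highest in the wild-type library numbered 1 of every treatment. Another 4 libraries, wild-type dexamethasone 1, knockout vehicle 2 and 3 and knockout dexamethasone 2, had 67.1 to 117 CPM of Arg1, a gene that IL4 induces, although no IL4 was given to them.

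Promoters of the mitosis members and of the replication members differ in sequence, and the promoters of 7 genes that the results turn on are shown for this. They run from 220 bases before to 30 bases after the RefSeq transcription start on GRCm38.p6, 5′ to 3′. Capitals mark 3 motifs on either strand: the CHR element (TTTGAA or TTCGAA), known as a site of the DREAM and B-Myb complexes, the CCAAT box, and E2F sites (TTTCCCGC, TTTCGCGC, TTTGCCGC or TTTGGCGC). Ube2c, Ccnb2, Top2a and Cdc20 act in mitosis, Mcm5 and Mcm6 are subunits of the replication helicase, and Cdkn1b encodes the inhibitor p27.
Ube2c (chr2:164769709-164769958, plus strand): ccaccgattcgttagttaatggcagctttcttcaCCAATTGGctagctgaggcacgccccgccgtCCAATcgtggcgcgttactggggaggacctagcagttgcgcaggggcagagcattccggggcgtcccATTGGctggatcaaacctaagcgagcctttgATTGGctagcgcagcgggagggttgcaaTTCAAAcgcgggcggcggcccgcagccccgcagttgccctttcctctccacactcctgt
Ccnb2 (chr9:70421525-70421774, minus strand): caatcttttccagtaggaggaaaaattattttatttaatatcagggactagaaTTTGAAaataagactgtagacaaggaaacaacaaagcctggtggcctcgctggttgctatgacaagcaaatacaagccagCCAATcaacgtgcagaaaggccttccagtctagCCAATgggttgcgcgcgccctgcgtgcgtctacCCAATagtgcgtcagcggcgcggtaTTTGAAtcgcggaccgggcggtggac
Top2a (chr11:99024160-99024409, minus strand): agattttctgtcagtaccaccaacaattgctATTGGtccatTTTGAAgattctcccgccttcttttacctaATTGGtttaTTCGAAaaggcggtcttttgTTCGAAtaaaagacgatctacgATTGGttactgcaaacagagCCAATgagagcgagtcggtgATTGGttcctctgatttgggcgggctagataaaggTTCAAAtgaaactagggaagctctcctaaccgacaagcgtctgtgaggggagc
Cdc20 (chr4:118437314-118437563, minus strand): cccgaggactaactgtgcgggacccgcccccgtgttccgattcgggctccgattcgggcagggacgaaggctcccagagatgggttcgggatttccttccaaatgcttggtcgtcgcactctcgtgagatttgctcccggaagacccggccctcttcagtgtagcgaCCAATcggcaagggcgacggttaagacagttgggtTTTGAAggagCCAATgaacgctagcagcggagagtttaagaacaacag
Mcm5 (chr8:75109289-75109538, plus strand): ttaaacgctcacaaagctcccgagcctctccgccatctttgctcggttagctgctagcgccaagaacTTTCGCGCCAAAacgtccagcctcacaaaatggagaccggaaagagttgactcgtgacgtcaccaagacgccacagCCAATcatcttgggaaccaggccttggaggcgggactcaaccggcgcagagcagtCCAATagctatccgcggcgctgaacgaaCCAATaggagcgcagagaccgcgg
Mcm6 (chr1:128359676-128359925, minus strand): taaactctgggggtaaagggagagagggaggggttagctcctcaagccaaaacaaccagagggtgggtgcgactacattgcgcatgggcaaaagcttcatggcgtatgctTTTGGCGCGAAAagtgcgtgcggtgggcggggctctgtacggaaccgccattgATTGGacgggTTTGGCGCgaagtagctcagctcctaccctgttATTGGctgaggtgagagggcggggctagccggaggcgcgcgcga
Cdkn1b (chr6:134920181-134920430, plus strand): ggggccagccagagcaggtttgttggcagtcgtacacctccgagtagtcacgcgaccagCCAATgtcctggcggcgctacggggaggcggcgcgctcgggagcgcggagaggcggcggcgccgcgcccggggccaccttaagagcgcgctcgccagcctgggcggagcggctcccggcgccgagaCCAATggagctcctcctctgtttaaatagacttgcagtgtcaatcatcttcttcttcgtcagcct

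A CHR element lay within 60 bases of the start in all 4 mitotic promoters shown. The E2F words of the Mcm5 promoter overlap each other on opposite strands, as do a pair of those of Mcm6, and neither promoter holds a CHR element. CCAAT boxes were present in all 7. The Cdkn1b promoter had 2 CCAAT boxes and no CHR element or E2F site in this window.

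Promoters were matched for 45 of the 55 genes by symbol, in a window of 300 bases. Those of Foxm1, Ccnd1, Kif20a, Ccna2, Ccnd2, Gmnn, Tpx2, Mcm4, Aurkb and Ccne2 were not matched. A CHR element was present in 17 of 21 mitosis genes (81.0%), in 3 of 14 replication and nucleotide supply genes (21.4%), and in 21.7% of all 27025 genes with a promoter in that table. Within 60 bases of the start, it was present in 16 of the 21 (76.2%), in 1 of the 14, and in 6.79% of all genes. CCAAT boxes were found in 18 of 21 mitosis genes, 10 of 14 replication and nucleotide supply genes and 41.1% of all genes. E2F sites showed the opposite order, with 1 of 21 mitosis genes (4.76%), 7 of 14 replication and nucleotide supply genes (50.0%) and 2.6% of all genes. A pair of TTC and GAA set 4 bases apart, the word that STAT6 binds, was present only in Mybl2 and Top2a of the 45, against 8.01% of all genes. The full palindrome that the glucocorticoid receptor binds, AGAACA and TGTTCT set 3 bases apart, was in none of the 45 and in 0.0111% of all genes. These matches describe letters in a window and do not show that a factor is bound.

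**Figure D1:**
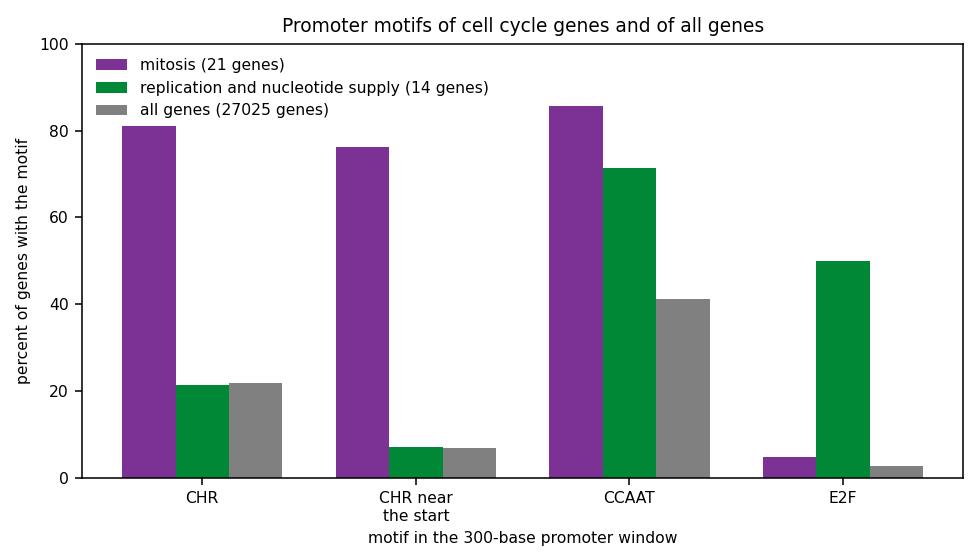
Bars give the percentage of genes whose 300-base promoter holds each motif, for 21 mitosis genes, 14 replication and nucleotide supply genes and all 27025 genes of the RefSeq promoter table. The CHR element is in 81.0%, 21.4% and 21.7% of these sets and E2F sites are in 4.76%, 50.0% and 2.6%.

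IL4 lowered the levels of most of these genes in wild-type macrophages. Against vehicle, 48 of the 55 fell and none rose (edgeR's quasi-likelihood F test, Benjamini-Hochberg adjusted p under 0.05 over all genes tested), where 30.1% of all genes were called and 15.3% were called lower. In 33 of the 55 the IL4 and vehicle libraries did not overlap, which was not counted over all genes. The median log2 fold change of the 55 was -0.49, beside -0.01 for all genes tested. The 25 mitosis genes had a median of -0.61, and 24 of them fell. The 16 replication and nucleotide supply genes had a median of -0.34, and 14 of them fell. In bulk RNA, fewer dividing cells and less of each transcript per cell cannot be told apart. The progenitor markers summed to between 14.7 and 21.4 CPM with vehicle and between 25.8 and 42.9 CPM with IL4 in wild type. In knockout they summed to between 30.6 and 43.8 CPM with vehicle and between 42.7 and 52.3 CPM with IL4. Only 3 of these 8 markers, Cd34, Kit and Mpo, had a mean over 1 CPM across the libraries. The sums with IL4 lay above those with vehicle in wild type and overlapped them in knockout. The sums alone do not show how many of the 8 markers rose. The part of these markers in the results was not tested.

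In GRIP1 knockout macrophages, 37 of the 55 fell with IL4 and none rose, where 26.5% of all genes were called and 12% were called lower. The median was -0.36 over all 55, -0.43 over the mitosis genes, of which 17 fell, and -0.34 over the replication and nucleotide supply genes, of which 13 fell. The calls of both genotypes shared 36 genes, 75.0% of the wild-type calls and 97.3% of the knockout calls. The 12 called in wild type alone were Ccna2, Ccne2, Cdc6, Cenpe, E2f8, Foxm1, Kif11, Kif20a, Kif23, Mcm4, Nusap1 and Ttk, and Mcm2 was called in knockout alone. With the replicate block Ccna2, Cenpe, Kif11, Kif20a and Kif23 were called lower in knockout as well. None of the 55 had an IL4 response that differed between genotypes in the test of that difference (edgeR, smallest adjusted p 0.553, 0 with an unadjusted p under 0.05, and 0 by DESeq2), where 0.0274% of all genes were called.

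**Figure D2:**
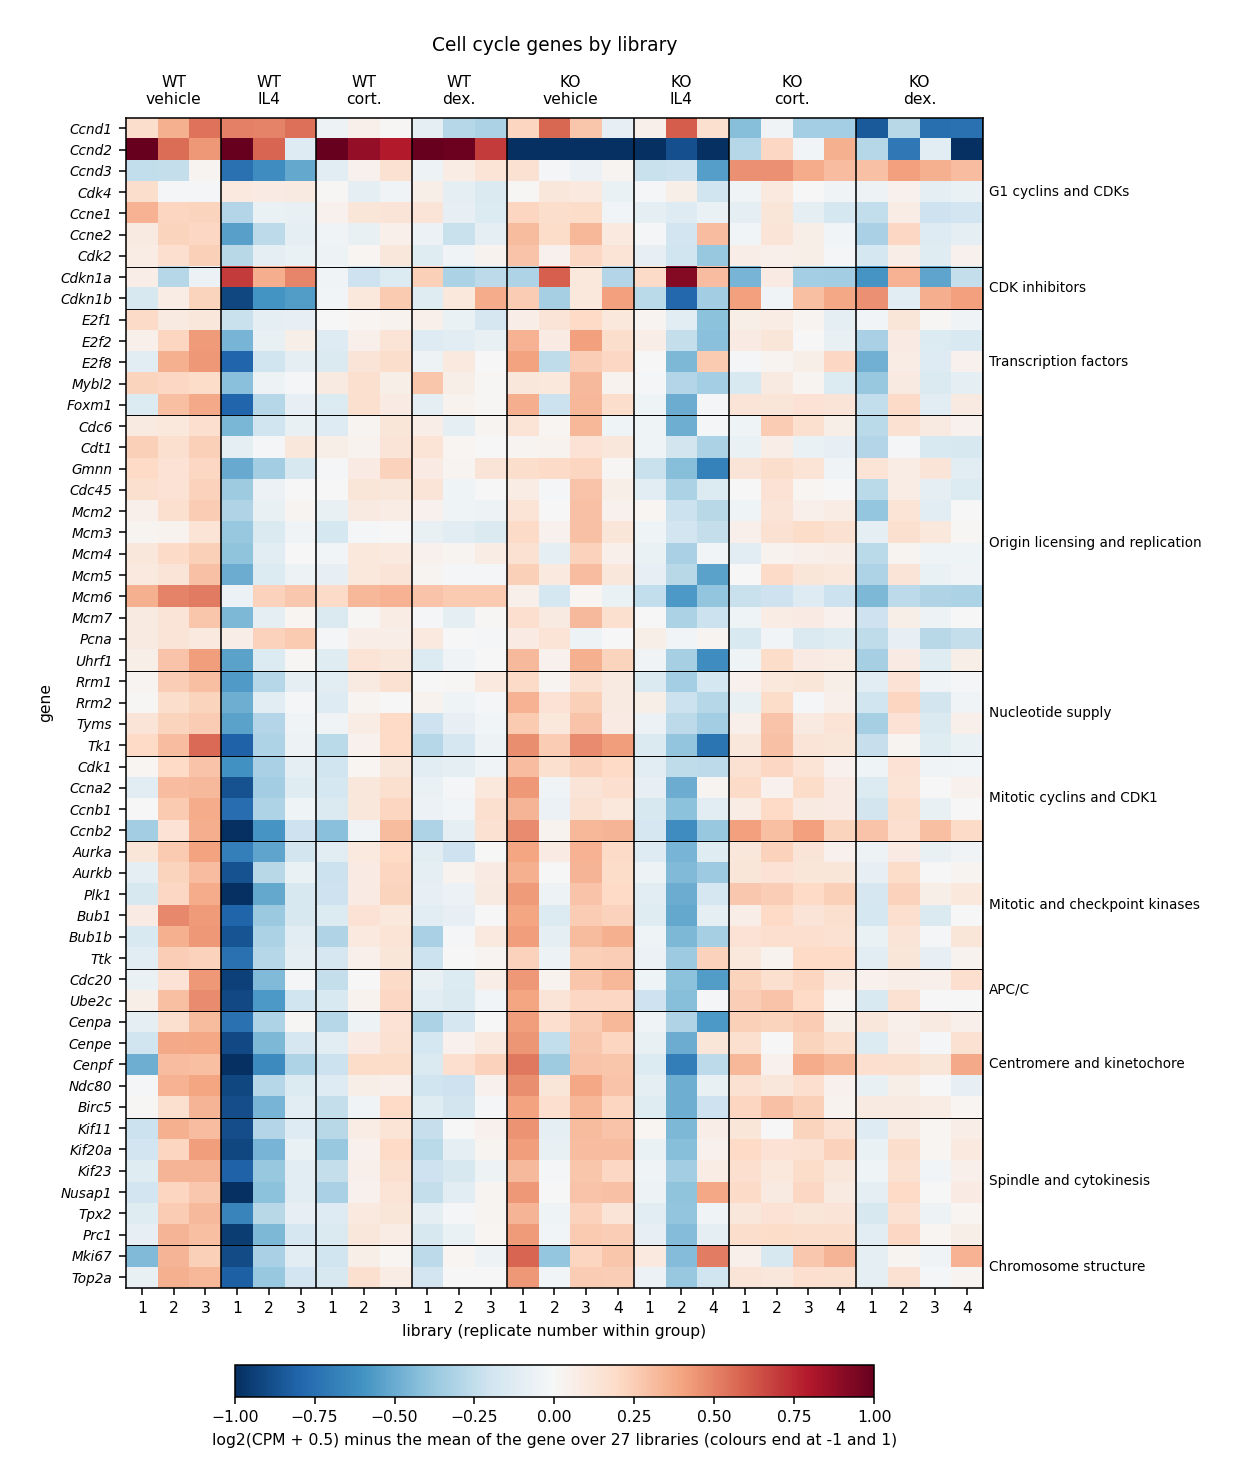
Colours give log2(CPM + 0.5) of each of the 55 genes in each of the 27 libraries, minus the gene's mean over the libraries, with the colour scale ending at -1 and 1. The IL4 columns are bluest across the mitosis rows, most of all in wild-type library 1, and Ccnd2, Mcm6, Cdkn1a and Pcna follow other patterns.

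Among the G1 cyclins, which start the cycle, the 3 D-type cyclins parted. Ccnd3 stood at 85.7, 86.4 and 104 CPM in wild-type vehicle libraries 1 to 3 and at 60.3, 65.8 and 71.3 CPM with IL4. The IL4 libraries lay below every vehicle library, and the fitted log2 fold change was -0.48 (SE 0.09, edgeR adjusted p = 0.00024) in wild type and -0.35 (SE 0.09, adjusted p = 0.00384) in knockout. Ccnd1, the cyclin most directly raised by growth factor signals, was at 372, 422 and 479 CPM with vehicle and 467, 464 and 483 CPM with IL4, which is within the vehicle range or just above it. Its log2 fold change was 0.15 (SE 0.16) in wild type and 0.03 (SE 0.15) in knockout, and neither passed the test. Ccnd2 did not pass it either, at -0.14 (SE 0.45) and 0.21 (SE 0.52), and varied widely among wild-type libraries as described below. The E-type cyclins, which act at the start of DNA synthesis, both fell in wild type, Ccne1 by 0.41 (SE 0.09) and Ccne2 by 0.47 (SE 0.12) on the log2 scale. In knockout Ccne1 fell by 0.24 (SE 0.09) and Ccne2 was at -0.19 (SE 0.11, not called). Their kinase Cdk2 fell in both genotypes, by 0.31 (SE 0.08) and 0.39 (SE 0.08), while Cdk4, the partner of the D-type cyclins, was at 0.04 (SE 0.07) and -0.09 (SE 0.07).

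Of the inhibitors of these kinases, Cdkn1b fell and Cdkn1a had a positive log2 fold change. Cdkn1b was at 37.2, 43.8 and 48.5 CPM in the wild-type vehicle libraries and at 21.9, 27.3 and 28.1 CPM with IL4, with no overlap. It fell by 0.74 (SE 0.18, edgeR adjusted p = 0.00302) on the log2 scale in wild type and by 0.59 (SE 0.17, adjusted p = 0.0133) in knockout, so the gene for p27, a brake on the cycle, fell with the cycle genes. Cdkn1a was at 428, 335 and 391 CPM with vehicle and at 664, 524 and 573 CPM with IL4 in wild type, also with no overlap. Its log2 fold change was 0.61 (SE 0.25), which did not pass the test across all genes (adjusted p = 0.0705), and in knockout it was 0.44 (SE 0.23, adjusted p = 0.175). In the 4 libraries with Arg1 but no IL4, Cdkn1a was at 481, 617, 438 and 519 CPM. The other 2 knockout vehicle libraries were at 329 and 332 CPM. They are a like reference for the knockout vehicle libraries among the 4, and not for the dexamethasone libraries. Without those 4 libraries Cdkn1a was called higher with IL4 in both genotypes, by 0.62 (edgeR adjusted p = 0.00638) in wild type and 0.80 (adjusted p = 0.00355) in knockout. The wild-type library left out is in neither group compared and enters only the scaling, the filter and the shared estimate of the spread. In knockout the step removes the vehicle libraries with high Cdkn1a, so a larger difference there was bound to follow. With the replicate block it was also called higher, by 0.61 (adjusted p = 2.4e-05) and 0.42 (adjusted p = 0.00124).

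All 5 transcription factors fell in wild type with IL4. E2f1 and E2f2, activators of the replication genes, fell by 0.27 (SE 0.08) and 0.38 (SE 0.13), and E2f8, a late-cycle repressor that is itself an E2F target, fell by 0.58 (SE 0.19). In knockout E2f1 fell by 0.28 (SE 0.08), E2f2 by 0.45 (SE 0.12) and Mybl2 by 0.36 (SE 0.11), whereas E2f8 was at -0.20 (SE 0.18) and Foxm1 at -0.35 (SE 0.16). The knockout vehicle libraries of E2f8 spread from 51.5 to 81.2 CPM and overlapped the IL4 libraries at 61.4, 44.9 and 73.8 CPM.

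Of the 12 genes that license origins and copy DNA, 10 fell in wild type and 9 in knockout. Mcm5, a helicase subunit, was at 272, 278 and 312 CPM with vehicle and 181, 232 and 245 CPM with IL4 in wild type, and at 301, 272, 315 and 275 CPM with vehicle and 241, 210 and 175 CPM with IL4 in knockout. The groups did not overlap in either genotype, and it fell by 0.39 (SE 0.11) and 0.48 (SE 0.11). Gmnn, which encodes the licensing inhibitor geminin, fell the most of the class, by 0.52 (SE 0.10, edgeR adjusted p = 0.000224) and 0.58 (SE 0.09, adjusted p = 5.94e-05). Pcna, the sliding clamp of the DNA polymerases, was the exception. It stood at 329, 338 and 330 CPM with vehicle and 322, 361 and 370 CPM with IL4 in wild type, a log2 fold change of 0.08 (SE 0.06), and in knockout it was at -0.02 (SE 0.06). Mcm2 was at -0.27 (SE 0.11, adjusted p = 0.0622) in wild type and fell by 0.28 (SE 0.10, adjusted p = 0.043) in knockout, so these nearly equal values lie on either side of the threshold. With the replicate block the adjusted p were 0.0466 and 0.0526.

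The 4 genes that supply nucleotides fell in both genotypes. Tk1, thymidine kinase 1, was at 127, 137 and 164 CPM with vehicle and 62.9, 89.4 and 107 CPM with IL4 in wild type. In knockout it was at 152, 132, 154 and 148 CPM with vehicle and at 100, 84.2 and 66.5 CPM with IL4. Every IL4 library was below every vehicle library of its genotype, and the falls of 0.72 (SE 0.15, edgeR adjusted p = 0.000695) and 0.81 (SE 0.14, adjusted p = 0.000221) were the largest of the class. Rrm2, the regulated subunit of ribonucleotide reductase, fell by 0.33 (SE 0.11) and 0.34 (SE 0.11).

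Mitosis genes gave the largest falls in wild type. Ube2c, the ubiquitin-conjugating enzyme of the anaphase-promoting complex, was at 86.7, 103 and 116 CPM with vehicle and 44.4, 55.8 and 72.5 CPM with IL4 in wild type. In knockout it was at 110, 91.5, 96.4 and 96.4 CPM with vehicle and 72.0, 62.0 and 82.5 CPM with IL4. No IL4 library reached the lowest vehicle library of its genotype, and it fell by 0.82 (SE 0.14, edgeR adjusted p = 6.18e-05) in wild type and by 0.45 (SE 0.13, adjusted p = 0.0127) in knockout. Cdc20, an activator of the same complex, fell by 0.60 (SE 0.17) and 0.60 (SE 0.16). Among the mitotic cyclins and Cdk1, the kinase they switch on, Ccnb2 fell the most, by 0.71 (SE 0.21) and 0.68 (SE 0.20). Cdk1 fell by 0.50 (SE 0.10) and 0.43 (SE 0.09), and Ccnb1 by 0.57 (SE 0.14) and 0.36 (SE 0.13). Ccna2, the cyclin of DNA synthesis and G2, fell by 0.60 (SE 0.16) in wild type and was at -0.35 (SE 0.15, adjusted p = 0.0801) in knockout, where the replicate block called it lower (adjusted p = 0.0172).

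The kinases of the spindle and its checkpoint all fell in wild type. Aurka, which builds the spindle poles, fell by 0.72 (SE 0.11, edgeR adjusted p = 3e-05) in wild type and by 0.49 (SE 0.11, adjusted p = 0.00149) in knockout. Bub1 and Bub1b, of the spindle checkpoint, had the largest falls of the class, Bub1 by 0.77 (SE 0.15) in wild type and Bub1b by 0.53 (SE 0.16) in knockout. Of the centromere and kinetochore genes, Cenpf fell by 0.74 (SE 0.22) in wild type and Cenpa, the centromeric histone, by 0.58 (SE 0.14) in knockout. Spindle and cytokinesis genes fell in 6 of 6 cases in wild type, with Prc1 at the front (0.69, SE 0.15), and in 2 of 6 in knockout, Prc1 and Tpx2. Top2a, which untangles sister chromatids, was at 385, 518 and 510 CPM with vehicle and 230, 311 and 354 CPM with IL4 in wild type, and it fell by 0.66 (SE 0.13) and, in knockout, by 0.44 (SE 0.13). Mki67, the usual marker of dividing cells, overlapped between the groups, at 303, 520 and 485 CPM with vehicle and 221, 327 and 381 CPM with IL4. Its log2 fold change was -0.49 (SE 0.25, adjusted p = 0.143) in wild type and -0.11 (SE 0.23, adjusted p = 0.783) in knockout, where its vehicle libraries ranged from 314 to 616 CPM. In wild type Mki67 was lower with IL4 in each of the 3 same-numbered pairs, and with the replicate block it was called lower (adjusted p = 0.0234).

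**Figure D3:**
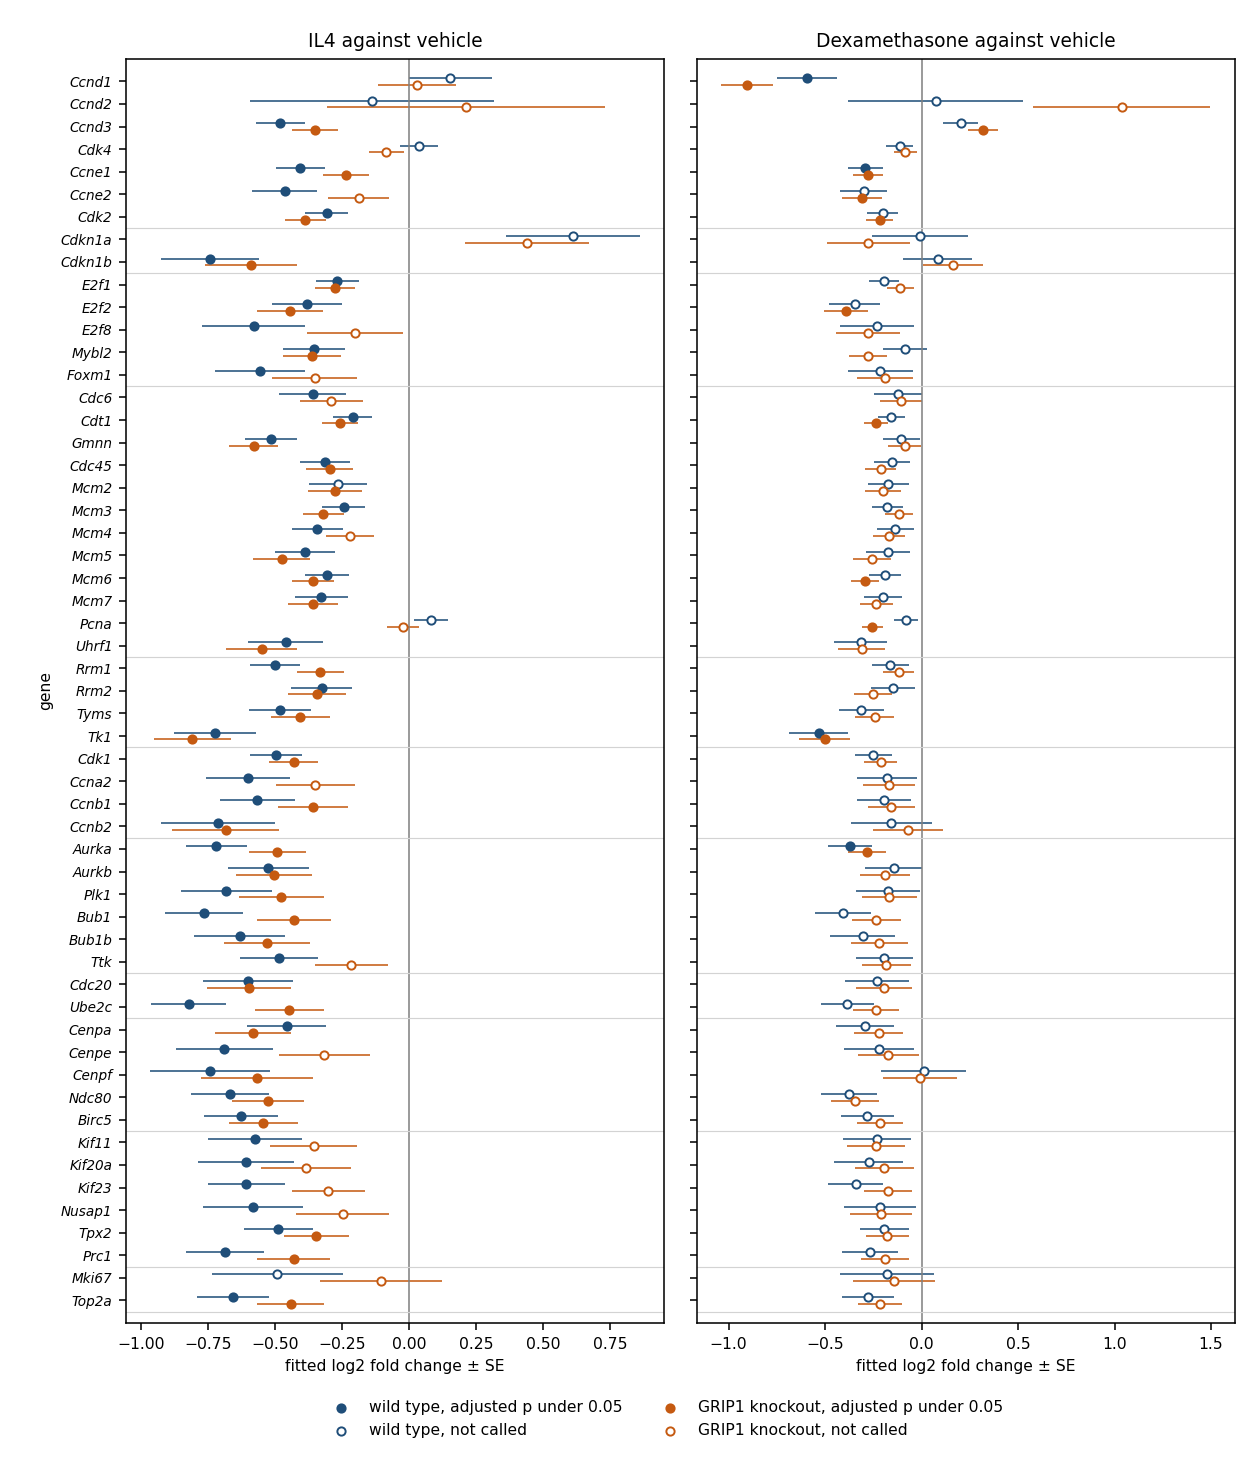
Points give the fitted log2 fold change of each of the 55 genes against vehicle with IL4 (left) and dexamethasone (right) in wild type (blue) and GRIP1 knockout (orange), bars give the SE, and filled points passed an adjusted p of 0.05. With IL4, 48 wild-type and 37 knockout points are filled, and with dexamethasone 4 and 11.

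The size of the fall differed among libraries. Libraries of the same number paired, as judged from their deviations across all genes, and the median log2 ratio of IL4 to vehicle over the 55 genes was -0.64, -0.52 and -0.39 in wild-type pairs 1 to 3. In the knockout it was -0.40, -0.36 and -0.33 in pairs 1, 2 and 4. In wild type 50 of the 55 genes were lower with IL4 in every pair, and in knockout 46, which was not counted over all genes. Wild-type IL4 library 1 had the lowest levels of all 27 and also the second highest stromal sum among the IL4 and vehicle libraries (613 CPM) and a neutrophil sum of 192 CPM, whose part in the result was not tested. Without it, 20 of the 55 were called in wild type, and without vehicle library 3, 28. Without all 4 wild-type libraries numbered 1, 36 were called and the median was -0.45. In knockout 22 were called without IL4 library 2, 24 without IL4 library 4, and 36 without the 4 libraries high in Arg1. A fit of only the groups compared called 21 and 24. Calls that held under every one of these and the other alternatives numbered 12 in wild type (Aurka, Bub1, Ccnd3, Ccne1, Cdk1, Cdkn1b, Gmnn, Rrm1, Tk1, Top2a, Tyms and Ube2c) and 16 in knockout.

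Other genes of the same pathways, on lists that do not overlap the 55, were counted beside the shares of all genes called lower with IL4, 15.3% in wild type and 12% in knockout. These lists, like the 55, were chosen with earlier results of these data known, and they were read in the same libraries. Of 42 further replication genes, 23 fell and 1 rose with IL4 in wild type and 24 fell in knockout. In wild type the smallest adjusted p were those of Slbp, which binds histone mRNA (-0.42, SE 0.07), Lig1, the replicative DNA ligase (-0.52, SE 0.10), and Dbf4, the activator of the Cdc7 kinase (-0.42, SE 0.09). Of 48 further mitosis genes, 44 fell in wild type, led by Pbk (-0.87, SE 0.12), the condensin subunit Ncapg2 (-0.95, SE 0.15) and the kinetochore gene Spc25 (-0.57, SE 0.10), and 26 fell in knockout. The median log2 fold change of these 48 was -0.57 in wild type and -0.39 in knockout. Other brakes on the cycle fell more often than they rose, with 11 of 20 lower and 1 higher in wild type and 7 lower and 1 higher in knockout. The brakes with the smallest adjusted p in wild type were Lin9, a DREAM and B-Myb complex subunit (-0.47, SE 0.09), Fzr1, an activator of the anaphase-promoting complex (-0.50, SE 0.10), and the E2F repressor E2f7 (-0.67, SE 0.14).

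Among 15 tested target genes of p53, which also drives Cdkn1a, 6 rose and 1 fell with IL4 in wild type, and 3 rose and 2 fell in knockout, where 30.1% and 26.5% of all genes were called in either direction. Plk2 rose by 1.89 (SE 0.30), Zmat3 by 0.79 (SE 0.17) and Trp53inp1 by 0.53 (SE 0.13) on the log2 scale in wild type. Of 16 growth factor receptor and MYC network genes, 4 rose and 5 fell in wild type and 6 rose and 3 fell in knockout. Csf2rb, the shared beta chain of the GM-CSF receptor, rose by 1.99 (SE 0.15) and 1.33 (SE 0.13), and Mxd4, an antagonist of MYC, by 1.32 (SE 0.15) and 0.74 (SE 0.13).

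Fewer of the 55 genes passed the test with glucocorticoids than with IL4. The 3 treatments of a genotype share its vehicle libraries, so their comparisons are not independent. Corticosterone moved none past the threshold in wild type by edgeR and none by DESeq2, where 5.94% of all genes were called, and 3 had an unadjusted p under 0.05. The median log2 fold change was -0.15 and 47 of the 55 were lower in every same-numbered pair, which was not counted over all genes. With the replicate number as a block, 2 were called, namely Ccnd1 (-0.36, adjusted p = 0.00488) and Tk1 (-0.37, adjusted p = 0.0287). Dexamethasone lowered 4 in wild type and raised none, where 13.7% of all genes were called and 6.03% were called lower. These were Ccnd1 (-0.59, SE 0.16, edgeR adjusted p = 0.0108), Ccne1 (-0.29, SE 0.09, adjusted p = 0.0339), Tk1 (-0.53, SE 0.15, adjusted p = 0.0193) and Aurka (-0.37, SE 0.11, adjusted p = 0.0296).

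Ccnd1 in wild type was at 318, 342 and 331 CPM with corticosterone and 309, 270 and 264 CPM with dexamethasone, all below the lowest vehicle library at 372 CPM. The remaining wild-type members shifted by little with dexamethasone, with a median of -0.20 over the 55. Of the 55, 24 had no overlap between the groups, which was not counted over all genes. The replicate block called 17 (16 lower, 1 higher), and its share over all genes is not given here. The count depended on single libraries, at 8 without vehicle library 1, 2 without vehicle library 2, 0 without vehicle library 3, 2 without dexamethasone library 1, 1 without library 2 and 2 without library 3. Without the 4 libraries high in Arg1 it was 2, and without the wild-type libraries numbered 1 it was 9.

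In GRIP1 knockout, dexamethasone lowered 10 of the 55 and raised 1, where 18.4% of all genes were called and 9.29% were called lower. Ccnd1 was at 382, 491, 399 and 312 CPM with vehicle, 244, 321, 260 and 261 CPM with corticosterone and 183, 271, 195 and 196 CPM with dexamethasone. All 4 dexamethasone libraries lay below the lowest vehicle library, and 1 of the 4 corticosterone libraries lay above it. It fell by 0.90 (SE 0.14, edgeR adjusted p = 3.16e-05) with dexamethasone and by 0.54 (SE 0.13, adjusted p = 0.00818) with corticosterone. The other falls called with dexamethasone were in genes of the start of DNA synthesis and of replication, namely Ccne1 (-0.28, SE 0.08), Ccne2 (-0.31, SE 0.11), Cdk2 (-0.22, SE 0.07), E2f2 (-0.39, SE 0.11), Cdt1 (-0.24, SE 0.06), Mcm6 (-0.29, SE 0.07), Pcna (-0.26, SE 0.05) and Tk1 (-0.50, SE 0.13), and in 1 of the 25 mitosis genes, Aurka (-0.28, SE 0.10). This split lies in the calls and not in the class medians. Between same-numbered libraries 1 to 4, the median log2 ratio of the mitosis genes was -0.50, 0.18, -0.27 and -0.20. That of the replication and nucleotide supply genes was -0.41, 0.04, -0.35 and -0.14.

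Ccnd3 was the one gene that dexamethasone raised in knockout, by 0.32 (SE 0.08), and corticosterone raised it by 0.37 (SE 0.08). It stood at 113, 100, 97.8 and 103 CPM with vehicle, 140, 140, 132 and 126 CPM with corticosterone and 125, 136, 130 and 126 CPM with dexamethasone, so that the glucocorticoid libraries were all above the vehicle libraries. Corticosterone changed 3 of the 55 in knockout, where 12.1% of all genes were called, namely Ccnd1, Ccnd3 and Ccnd2, which rose by 1.74 (SE 0.45). With the replicate block corticosterone changed 6. The count was 5 without corticosterone library 2 and 0 without the 4 libraries high in Arg1. The dexamethasone count was 6 without dexamethasone library 1, 19 without library 2, 7 without library 3 and 7 without vehicle library 3, and it was 19 without the wild-type libraries numbered 1, which are in neither group but enter the scaling, the filter and the shared estimate of the spread. Knockout vehicle library 2, one of the 4 high in Arg1, had the lowest level of the 4 vehicle libraries in 41 of the 55 genes, and the median log2 ratios of its pairs were 0.12 with corticosterone and 0.12 with dexamethasone, while those of the other pairs were negative.

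No member had a response to corticosterone or dexamethasone that differed between genotypes in the test of that difference by edgeR, and none by DESeq2, where 0.0206% and 0.185% of all genes were called, and 1 member had an unadjusted p under 0.05 with each. For corticosterone this was Ccnd2, with a difference of 1.54 (SE 0.64) on the log2 scale, and for dexamethasone it was Pcna, with a difference of -0.18 (SE 0.08). Of the further replication genes, 5 of 42 fell with dexamethasone in wild type and 14 in knockout, among them Lig1 (-0.40, SE 0.10, and -0.40, SE 0.08) and Dscc1, of the clamp loader that joins sister chromatids (-0.54, SE 0.12, and -0.49, SE 0.11). Of the further mitosis genes, 3 of 48 fell in wild type, and in knockout 2 fell and 1 rose. Over all genes 6.03% were called lower with dexamethasone in wild type and 9.29% in knockout. Cdkn1c, which encodes the inhibitor p57, fell with dexamethasone by 1.41 (SE 0.39) and 1.86 (SE 0.31). Of the p53 targets, Trp53inp1 rose by 1.41 (SE 0.13) and 0.80 (SE 0.11), while Plk2 was at -0.84 (SE 0.31, not called) in wild type and fell by 1.38 (SE 0.27) in knockout.

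**Figure D4:**
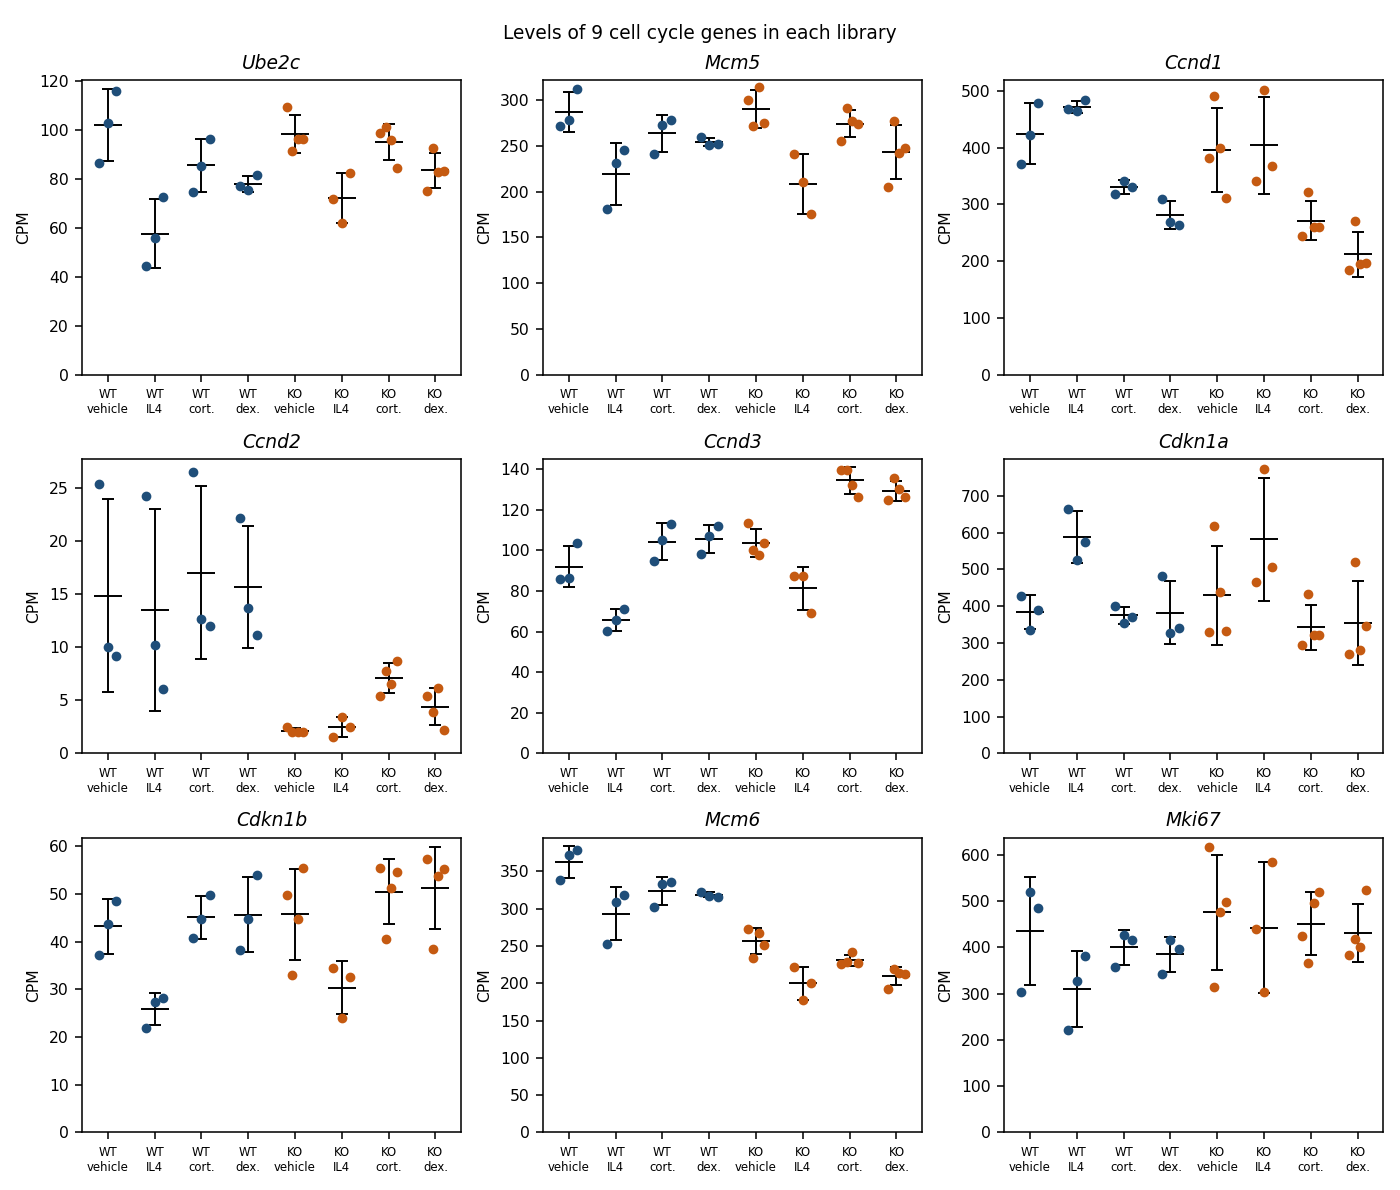
Points give CPM of 9 genes in each library by group, with the mean (long bar) and SD (short bars) of 3 or 4 libraries. Ccnd1 is lower with glucocorticoids and not with IL4, Ccnd3 and Cdkn1b are lower with IL4, and Mcm6 and Ccnd2 are lower in the knockout groups.

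IL4 and the glucocorticoids were also compared with each other, with 24 members called between IL4 and corticosterone and 14 between IL4 and dexamethasone in wild type, where 31.7% of all genes were called in each comparison. In knockout the counts were 29 and 12, where 37.9% and 38% of all genes were called. Of these members 23, 13, 27 and 9 were lower with IL4, in the same order, where 16.9%, 16.7%, 18.5% and 17.8% of all genes were called lower. Ccnd1 was higher with IL4 in all 4 comparisons, by 0.51 (SE 0.16) over corticosterone and 0.75 (SE 0.16) over dexamethasone in wild type and by 0.57 (SE 0.14) and 0.93 (SE 0.14) in knockout. Ccnd3 and Cdkn1b were lower with IL4 in all 4, with log2 differences between -0.72 and -0.66 for Ccnd3 and between -0.83 and -0.73 for Cdkn1b. Ccnd3, Cdkn1b and Gmnn kept their calls under every alternative in each of the 4 comparisons. Of the 25 mitosis genes, 17 were lower with IL4 than with corticosterone and 9 lower than with dexamethasone in wild type, and 14 and 5 in knockout.

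The counts of these comparisons moved with single libraries. In wild type IL4 against corticosterone called 7 without IL4 library 1, 12 without IL4 library 2, 12 without corticosterone library 2 and 9 without corticosterone library 3, and 39 with the replicate block. IL4 against dexamethasone called 5 without IL4 library 1, 6 without IL4 library 2, 28 without IL4 library 3, 8 without dexamethasone library 2 and 5 without library 3, and 33 with the block. In knockout IL4 against corticosterone called 14 without IL4 library 2 and 19 without IL4 library 4. Against dexamethasone it called 19 without IL4 library 1, 5 without library 2, 6 without library 4, 7 without dexamethasone library 2 and 6 without library 3, and 21 with the block.

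Between the genotypes, the levels of nearly all 55 genes were close. With vehicle 2 members were called, with IL4 3, with corticosterone 2 and with dexamethasone 5, where 18.8%, 12.4%, 14.4% and 17.2% of all genes were called. The median log2 difference of the 55 between knockout and wild type lay between 0.01 and 0.10 over the 4 treatments. Mcm6 was lower in knockout under every treatment, by 0.50 (SE 0.08, edgeR adjusted p = 7.33e-05) with vehicle, 0.55 (SE 0.08, adjusted p = 0.000143) with IL4, 0.49 (SE 0.08, adjusted p = 0.000138) with corticosterone and 0.60 (SE 0.08, adjusted p = 7.84e-06) with dexamethasone. It stood at 338, 372 and 378 CPM in the wild-type vehicle libraries and at 273, 234, 268 and 252 CPM in those of the knockout, with no overlap under any treatment. These calls held under every alternative tried.

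Mcm6 lies on the minus strand at chr1:128331590-128359664 (GRCm38, GENCODE vM21), 115 Mb from Ncoa2, which is on the minus strand at chr1:13139105-13374083. The other 5 helicase subunits among the members, Mcm2, Mcm3, Mcm4, Mcm5 and Mcm7, were not called between genotypes under any treatment. Hjurp, the chaperone of the centromeric histone and a gene of the further mitosis list, was also lower in knockout under all 4 treatments, with log2 differences between -0.81 and -0.64.

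Ccnd2 differed most between the genotypes. In wild type it was at 25.4, 10.1 and 9.2 CPM with vehicle, and the library numbered 1 was the highest under each treatment, at 22.2 to 26.5 CPM against 6.1 to 13.7 CPM in the others. In knockout it was at 2.5, 2.0, 2.0 and 2.0 CPM with vehicle, 1.6, 3.4 and 2.5 CPM with IL4, 5.4, 7.8, 6.6 and 8.7 CPM with corticosterone and 5.4, 3.9, 6.1 and 2.2 CPM with dexamethasone. Every knockout library was below every wild-type library of its treatment. The log2 difference was -2.80 (SE 0.46, edgeR adjusted p = 0.0002) with vehicle, -2.45 (SE 0.52, adjusted p = 0.00363) with IL4, -1.26 (SE 0.43, adjusted p = 0.0531) with corticosterone and -1.84 (SE 0.45, adjusted p = 0.00595) with dexamethasone. The stromal sum followed the same order among wild-type libraries, with 613 to 762 CPM in those numbered 1 and 147 to 323 CPM in the others. Marker sums of neutrophils, monocytes, dendritic cells and progenitors were also highest in the wild-type library numbered 1 of each treatment. The part of these sums in the Ccnd2 levels was not tested. Without the 4 libraries high in Arg1 the difference with dexamethasone was not called (adjusted p = 0.117).

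Ccnd3 was higher in knockout by 0.31 (SE 0.09) with IL4, 0.37 (SE 0.09) with corticosterone and 0.29 (SE 0.09) with dexamethasone. With dexamethasone, Cdt1, which loads the helicase, was lower by 0.21 (SE 0.07) and Pcna by 0.24 (SE 0.06). The dexamethasone count was 1 without wild-type dexamethasone library 1, 3 without library 2, 3 without the 4 libraries high in Arg1 and 3 without the wild-type libraries numbered 1. The IL4 count was 8 without wild-type IL4 library 3, and the corticosterone count was 1 without wild-type corticosterone library 1. Among the other brakes, Cdkn2b and Cdkn2a, which hold back Cdk4 and Cdk6, were lower in knockout under all 4 treatments, with log2 differences between -2.02 and -1.38 for Cdkn2b and between -1.68 and -0.86 for Cdkn2a, and Cdkn1c was higher, with differences between 1.27 and 1.73.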

How the data were processed

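Libraries were strand-marking (NEBNext Ultra II Directional) and were sequenced in pairs of 50 bases, per the labels' protocols. The values are the authors' deposited raw read counts per gene. The tools named in the submitters' processing notes are fastp 0.23.2, STAR 2.7.0, featureCounts and edgeR 3.38.4, with the build mm10. The annotation and strand setting used in counting are not given in the sources used here, and 19 of the 55 genes overlap a gene on the other strand and 6 a gene on the same strand in GENCODE vM21, so their values are less certain.

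From these counts, genes were filtered with filterByExpr (minimum count 10), library sizes were scaled by TMM, and all 27 libraries entered 1 model of 8 groups (edgeR 4.0.16 in R 4.3.3, quasi-likelihood F test, legacy, robust). P-values were adjusted by the Benjamini-Hochberg method over 14589 genes and called under 0.05. Across genes the biological coefficient of variation was 0.122. CPM are counts per 1000000 of the TMM-scaled library size of the genes tested, and values described as log2 fold changes or differences are fitted, with SE. On simulated counts of the IL4 comparison in wild type (14321 genes), the test recovered 16% of genes changed by 0.32 on the log2 scale, 66% of those changed 1.5-fold, 68.8% at 2-fold and 93.9% at 4-fold, with 6 false calls. The simulation changed 50, 50, 48 and 49 tested genes at these sizes, whereas 30.1% of all genes were called in the data. The adjustment is stricter where fewer genes change, so these shares do not carry over to the data.

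The labels do not say whether libraries of a group came from separate mice, so p-values cover only the library-to-library spread, part or all of which can be technical. Same-numbered libraries were taken as paired where the correlation of their deviations from the group means was over 0.1 in every pair, which held in all comparisons within wild type (0.19 to 0.71) and, within knockout, in all except dexamethasone against vehicle (lowest 0.0052). It did not hold between genotypes. No 2 libraries of a group agreed within sampling noise.

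The genes and all lists (further replication, mitosis, brake, p53 target and growth genes, and cell type markers) were chosen with earlier results of these data known. Genes named are a core of 22 members, the called member with the largest change of each role in a comparison, every called member where 5 or fewer were called, and the 3 genes of each further list with the smallest adjusted p. A gene that this rule names is not reported here. Some others are named after their values were seen: Cdk2, Cdk4, Mybl2, Foxm1, Tpx2, and the members listed by name where calls are counted. Alternatives were RLE scaling, no filter, the edgeR 4 quasi-likelihood method, DESeq2 1.42.0, a replicate block, fits of only the groups compared, and fits without single libraries, without the 4 libraries high in Arg1 or without the wild-type libraries numbered 1.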

Additional observations from a re-analysis of the deposited data

Results flagged for a closer look

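In groups of 4 libraries, all in knockout, a library stood apart from the other 3 in 12 of the 165 gene and group combinations by Dixon's test at its 95% critical value, where chance gives about 1 in 20. With corticosterone, library 2 was the highest for Cdt1 (108 CPM, others 97.6 to 98.5), Cdc45 (41.6 CPM, others 37.7 to 38.2), Tk1 (136 CPM, others 120 to 121) and Ccnb1 (82.9 CPM, others 75.8 to 76.9), and the lowest for Cenpf (72.2 CPM, others 88.3 to 91.1). With dexamethasone, library 2, one of the 4 high in Arg1, was the highest for Ccnd1 (271 CPM, others 183 to 196), Ccne1 (48.7 CPM, others 38.8 to 40.5) and Cdk1 (161 CPM, others 141 to 143), and library 4 was the highest for Cenpf (91.6 CPM, others 76.4 to 78.9). With vehicle, library 1 was the highest for Ccnd2 (2.48 CPM, others 2.01 to 2.04), library 4 the lowest for Ccne1 (45.3 CPM, others 52.3 to 53.6) and library 2, also high in Arg1, the lowest for Ttk (23.8 CPM, others 29.0 to 29.4).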

How the results depend on the processing

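Of 271 alternative counts of called members over the 17 comparisons and differences, 210 stayed within 1.5 times the count reported and 61 did not. Of 2831 alternative values of called members, 2283 kept their call, 548 kept their direction without the call, and none changed sign. RLE scaling and the edgeR 4 method moved no count by over 1.5 times. Without the filter on low counts, which adds genes to the adjustment, IL4 against corticosterone and dexamethasone called 14 and 8 in wild type and 19 and 5 in knockout. Fits of only the groups compared, with fewer libraries behind the spread, called 21 and 24 with IL4 against vehicle in wild type and knockout, 5 between genotypes with corticosterone, and 8 and 6 with IL4 against corticosterone and dexamethasone in wild type. DESeq2 called 4 between genotypes with corticosterone.

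With the replicate block, where same-numbered libraries paired, corticosterone called 2 in wild type and 6 in knockout, dexamethasone 17 in wild type, and IL4 against corticosterone 39 and against dexamethasone 33 in wild type and 21 against dexamethasone in knockout. For dexamethasone in knockout, whose libraries share only a number, the block called 23. The block moved no other count by over 1.5 times, IL4 against vehicle giving 51 and 42. Without the 4 libraries high in Arg1, dexamethasone called 2 in wild type, corticosterone 0 in knockout, and the genotypes 3 with dexamethasone. Without the wild-type libraries numbered 1, dexamethasone called 9 in wild type and 19 in knockout, the genotypes 3 with dexamethasone, and IL4 against corticosterone 14 and against dexamethasone 8 in wild type and 20 in knockout. The cause of these shifts was not tested.

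Leaving out 1 library at a time, IL4 called from 20 to 49 in wild type and, for the knockout, from 22 to 41, 0 to 8 and 6 to 19 with dexamethasone, and 0 and 3 to 5 with corticosterone. Between genotypes it gave 2 to 3 with vehicle, 2 to 8 with IL4, 1 to 3 with corticosterone and 1 to 6 with dexamethasone. IL4 against corticosterone gave from 7 to 34 in wild type, and from 14 to 34 in the knockout, and IL4 against dexamethasone 5 to 28 and 5 to 19. The 3 differences of response between genotypes stayed at 0. In the simulation of the IL4 comparison in wild type, 16% of changes of 0.32 on the log2 scale were recovered. Far fewer genes changed there than were called in the data, so this share does not carry over. Changes of this size can be missed at 3 libraries a group, but Cdt1 (-0.21) and Mcm3 (-0.25) were called in that comparison.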
